A study of Mus musculus with 31 samples.

Results

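Megakaryocytes are the bone marrow and fetal liver cells that shed platelets. The transcripts described here belong to 9 genes of that lineage, Gp9, Gp1bb, Gp5, Itga2b, Pf4, Vwf, Selp, Nfe2 and Fyb, of 18193 genes named on the array. The genes were chosen by earlier results of these data, because as a set they lay lower in FL HSCs with 1 inactive copy of Crebbp or of Ep300, so the values of those 2 experiments are given as a description with no test. All probe sets that the array annotation gives to these genes were taken. There are 13 probe sets of a member gene alone, of 45037 probe sets in all, and 1 more (1452357_at) that is annotated to both Gp1bb and Septin5 and is named for neither.

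Platelets stick to injured vessel walls through the GPIb-IX-V complex, in which Gp9, Gp1bb and Gp5 encode subunits, and the ligand of that complex is von Willebrand factor, the product of Vwf. They bind each other through an integrin whose alpha chain is encoded by Itga2b. Pf4 (a chemokine), Vwf and Selp (P-selectin, an adhesion molecule) are stored in alpha granules, Nfe2 encodes a transcription factor needed for platelet release, and Fyb encodes an adaptor that links receptor signals to integrins. Several of these genes are also active outside the lineage: Vwf and Selp in endothelial cells, Fyb in T cells and myeloid cells, and Vwf, Selp and Itga2b in subsets of stem and progenitor cells.

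RNA was measured on Affymetrix arrays covering the mouse genome in 4 experiments with 23 samples on 31 arrays. In the first and second experiments, FL HSCs were fetal liver cells of 14.5 days post coitus sorted as Lin-, Sca-1+, AA4.1+ and c-Kit++, with 2 WT and 2 Crebbp+/- samples in one and 2 WT and 2 Ep300+/- samples in the other, each sample a pool of 15 embryos read on 2 arrays. These mice were C57BL/6 and the WT embryos were littermates. The third experiment compared FL HSCs of 4 Cdkn1a-/- and 3 WT samples on a background labelled B6/129Sv. These were also pools of 15 embryos of 14.5 days post coitus, and the methods give the same sort for all FL HSCs. The fourth compared mouse embryonic fibroblasts (MEFs) of 4 Crebbp+/- and 4 WT embryos from the same 4 litters. The MEF embryos were of 14.5 days post coitus as well, and the methods give C57BL/6 as the background of the Crebbp+/- mice. The Cdkn1a-/- mice and their WT controls, B6129SF2, were purchased as separate stocks, so stock and genotype cannot be told apart. The mutations are constitutive, so every cell of a mutant embryo carried them. Cell suspensions of the fetal livers were kept frozen while the embryos for each pool were gathered, and 12 ng of FL HSC RNA was amplified. Because the arrays of each experiment were normalized apart, levels are compared only within an experiment. The values are log2 levels, and a probe set counts as measured where its highest sample reached 6.64, the log2 of an intensity of 100.

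The labelled cell types were checked against marker genes. Of 9 genes of the stem and progenitor gate, 8 reached the minimum in the Crebbp and Ep300 FL HSC groups, 9 in the Cdkn1a groups and 3 in MEFs, where 10 of 10 fibroblast genes did. None of 9 erythroid genes reached it in the Crebbp and Ep300 FL HSC groups. Of 9 hepatocyte genes 4 did in the WT and 2 in the Crebbp+/- FL HSC group, where the summed linear level was 67 and 901 in the WT samples and 330 and 479 in the mutant samples, and none did in the Ep300 groups. WT sample 3 of the Cdkn1a experiment stood apart: its summed linear level was 13170 over 9 erythroid genes, against 130 and 149 in the other WT samples, 111776 over 9 hepatocyte genes, against 432 and 492 (916 to 3695 in the Cdkn1a-/- samples), and 21757 over 10 macrophage genes, against 6502 and 11537. Differences of that experiment are therefore given with and without it. In sorted pools such as these, fewer cells of a type and less RNA per cell cannot be told apart.

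The genes lie on 6 chromosomes. In GRCm38.p6, Gp9 spans chr6:87776131-87779786, Gp1bb chr16:18620319-18622403, Gp5 chr16:30307685-30310781, Itga2b chr11:102453297-102469883, Pf4 chr5:90772435-90773383, Vwf chr6:125552948-125686679, Selp chr1:164115264-164150026, Nfe2 chr15:103248212-103258403 and Fyb chr15:6522796-6665608. Whether a probe set lies in an exon, an intron or a UTR was not determined here.

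Upstream sequence of RefSeq starts was at hand for 7 of the 9 genes (not Nfe2 or Vwf). The 250 bases before the start are shown for Gp9 and Selp, the measured genes that lay lower in every Crebbp+/- and Ep300+/- sample than in the paired WT sample, and the last 100 bases for Pf4 and Itga2b, which were highest in the Cdkn1a WT sample that stood apart. Capitals mark GATAA, the core bound by GATA factors, and GGAAG, the core bound by ETS factors such as FLI1, on either strand (TTATC and CTTCC where the match is on the other strand). Gp9 is on the plus strand, chr6:87777820-87778069, Selp on the plus strand, chr1:164115014-164115263, Pf4 on the plus strand, chr5:90772335-90772434, and Itga2b on the minus strand, chr11:102469884-102469983, all in GRCm38.p6 and written 5′ to 3′.
Gp9: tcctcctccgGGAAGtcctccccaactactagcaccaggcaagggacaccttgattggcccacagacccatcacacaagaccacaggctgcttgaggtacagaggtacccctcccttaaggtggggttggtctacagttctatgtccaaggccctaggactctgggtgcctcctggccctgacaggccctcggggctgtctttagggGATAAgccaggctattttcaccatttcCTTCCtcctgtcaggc
Selp: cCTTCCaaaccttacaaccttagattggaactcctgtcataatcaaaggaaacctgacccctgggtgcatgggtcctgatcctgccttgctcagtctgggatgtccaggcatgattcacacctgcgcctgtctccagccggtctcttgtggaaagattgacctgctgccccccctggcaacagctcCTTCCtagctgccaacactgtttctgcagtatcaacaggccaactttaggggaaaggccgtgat
Pf4: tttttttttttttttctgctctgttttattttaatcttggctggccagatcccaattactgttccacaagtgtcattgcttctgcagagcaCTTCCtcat
Itga2b: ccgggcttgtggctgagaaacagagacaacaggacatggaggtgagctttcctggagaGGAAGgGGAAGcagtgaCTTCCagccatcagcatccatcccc

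GATAA was found in 22.6% of 32851 upstream windows of this length and GGAAG in 64.1%. In Gp9 the GATAA match lay 43 to 39 bases before the start and 1 of its 2 GGAAG matches 16 to 12 bases before it. The starts used for Gp9 and Fyb lie inside the gene spans given above and not at their upstream ends. Selp held 2 GGAAG matches and no GATAA, Pf4 held 1 GGAAG match 9 to 5 bases before the start, and Itga2b held 4 GGAAG matches and no GATAA. Among the genes not shown, Gp5 held 2 of each, Gp1bb 2 GGAAG and no GATAA, and Fyb 1 GATAA and no GGAAG. The pattern TGANTCA, with any base at N, occurred once each in Gp1bb (as TGAATCA) and Selp (as TGATTCA) and in 6.75% of all windows. It is looser than the site of NFE2 and AP-1 dimers, and neither match is read as such a site. TGACG, the core of the CREB site, was in 17.8% of all windows and in none of the 7. A match of letters describes the window only.

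Gp9 lay lower in the Crebbp+/- and in the Ep300+/- FL HSC samples than in WT, and Selp did so in every pair of samples, whereas Nfe2 and Fyb differed by little. The other 5 genes were below the minimum in every sample of these experiments, so the lower level of the set rests on few genes. Samples of the same number were compared as a pair, and the difference is mutant minus WT on the log2 scale.

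Gp9 had levels of 6.84 and 6.80 in the WT samples and 5.37 and 5.85 in the Crebbp+/- samples. Both mutant samples lay below both WT samples, by -1.47 and -0.94 in the pairs, with a mean difference of -1.21 (SE 0.16 in the joint fit of the 8 samples of both experiments). At the level of single arrays the 4 Crebbp+/- arrays, from 5.28 to 5.97, lay below the 4 WT arrays, from 6.68 to 6.91. In the Ep300 experiment the WT samples had levels of 6.67 and 6.63 and the Ep300+/- samples 6.35 and 6.07. The groups did not overlap there either, with pair differences of -0.32 and -0.55 and a mean of -0.44 (SE 0.16), but single arrays did, from 6.01 to 6.51 in the mutant and from 6.36 to 6.98 in WT. Gp9 reached the minimum in WT samples only, so it was counted as measured through the group in which it was higher, and with the mutant means below the minimum the size of the difference is not exact.

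Selp was read by 3 probe sets, of which 1420558_at was measured. Its levels were 6.56 and 6.46 in WT and 5.79 and 5.91 in Crebbp+/- samples, with no overlap and a mean difference of -0.66 (SE 0.11). None of these 4 samples reached the minimum, so in the Crebbp experiment Selp counted as measured through the Ep300 samples of the joint fit alone and the size of its difference is not exact. In the Ep300 experiment it was 7.02 and 5.43 in WT and 6.72 and 5.03 in Ep300+/- samples. The samples of number 1 were far above those of number 2 in both genotypes, so the groups overlapped, and only within the pairs was the mutant lower, by -0.30 and -0.40, with a mean of -0.35 (SE 0.11). The Selp difference depended on which of the 2 arrays of a sample was read: with the first arrays alone it was -1.09 in Crebbp+/- and -0.83 in Ep300+/- samples, and with the second arrays alone -0.24 and 0.13, so the direction turned in the Ep300 experiment. The 2 arrays of a sample lay up to 0.96 apart for this probe set.

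The dimmer Selp probe set 1449906_at, at most 6.32 in these samples, was also lower in 4 of 4 pairs, with mean differences of -0.84 and -0.33, but its 2 arrays of a sample lay up to 1.96 apart. On the first arrays of the Crebbp experiment mutant sample 1 (4.60) lay above its WT pair (4.08). The probe set 1440173_x_at, at most 4.39, was lower in 3 of 4 pairs. The measured 1420558_at and Gp9 were the 2 of 5 measured probe sets that lay lower in 4 of 4 pairs. Over all 13332 measured probe sets, 8.51% lay lower in all 4 pairs. Every mutant sample lay below every WT sample for 12.0% of them in the Crebbp experiment and for 18.6% in the Ep300 experiment. These contrasts chose the genes, and nothing is read from the counts.

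**Figure D1:**
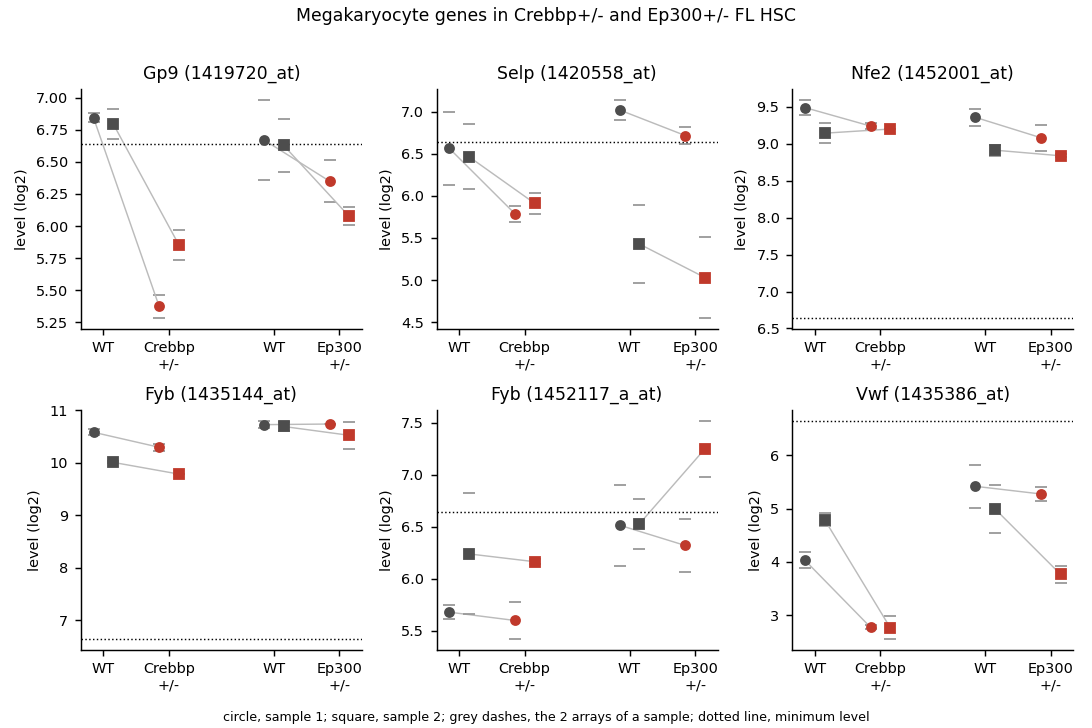
Log2 levels of 6 probe sets in the Crebbp and Ep300 FL HSC experiments. Points are samples (mean of 2 arrays), grey dashes single arrays, lines join samples of the same number and the dotted line is the minimum of 6.64. Gp9 and Selp lie lower in the mutant sample of each of the 4 pairs, Nfe2 and Fyb (1435144_at) lie close together, and Vwf is below the minimum throughout.

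Nfe2, the transcription factor of the set, had levels of 9.49 and 9.14 in WT and 9.24 and 9.20 in Crebbp+/- samples. The groups overlapped and the mean difference was -0.10 (SE 0.13). In the Ep300 experiment the levels were 9.36 and 8.91 in WT and 9.08 and 8.84 in Ep300+/- samples, again with overlap and with a mean difference of -0.18 (SE 0.13). Fyb was read by 2 probe sets. The brighter, 1435144_at, was 10.58 and 10.01 in WT against 10.30 and 9.79 in Crebbp+/- samples, a mean difference of -0.25 (SE 0.11) with overlapping groups. In Ep300+/- samples it was 10.74 and 10.52 against 10.73 and 10.69 in WT, a mean difference of -0.08. The dimmer Fyb probe set 1452117_a_at differed by -0.08 in Crebbp+/- and by 0.26 in Ep300+/- samples (SE 0.23 in each), so the probe sets of Fyb disagreed in direction in the latter.

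The 5 genes below the minimum had little signal to compare. Vwf came nearest to it, with at most 5.42. Its levels were 4.03 and 4.79 in WT and 2.77 and 2.76 in Crebbp+/- samples, and 5.42 and 4.99 in WT and 5.27 and 3.76 in Ep300+/- samples, lower in 4 of 4 pairs but at intensities where the size of a difference is not exact. Just inside the minimum were Gp9, at most 6.84, and Selp 1420558_at, at most 7.02. Pf4 lay between 2.59 and 4.50 and was lower in 2 of 4 pairs. Itga2b lay between 2.52 and 3.95, and Gp5 and both Gp1bb probe sets did not exceed 2.40.

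Over the 4 measured genes, with 1 probe set a gene, the median difference was -0.46 in Crebbp+/- and -0.26 in Ep300+/- FL HSCs, beside 0.05 and -0.01 over all probe sets tested. Because these contrasts chose the genes, no test of the members is given. A call needs a fold change over 1.5 and an adjusted p under 0.05. Limma called 0.383% of all probe sets tested in the Crebbp experiment (10 higher and 41 lower) and 0.0% in the Ep300 experiment. At an unadjusted p under 0.05 with that fold there were 1333 and 104 of the 13332 probe sets. The 0.383% rested on the joint fit: without the replicate block, or with only the 4 samples of the Crebbp experiment, 0 probe sets were called.

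Endothelial cells also make Vwf and P-selectin, and an endothelial list of 12 genes was therefore summed in each sample. The sum was 2852 to 3145 in the WT and 2373 to 2511 in the Crebbp+/- samples, which did not overlap, and 2899 to 3533 in the WT and 2925 to 3475 in the Ep300+/- samples, which did. In the Crebbp groups 6 (WT) and 5 (Crebbp+/-) of its 12 genes reached the minimum, and in the Ep300 groups 7 did in each. Of the 12 genes, Cdh5 and Kdr did not reach it and were at most 2.58 and 2.28 in these 8 samples. The genes that did reach it included Tek, Tie1, Egfl7 and Eng. Some genes of the stem and progenitor gate were also lower in the Crebbp+/- samples. The sum of the 9 genes of the stem and progenitor gate was 14036 to 14995 in WT and 13318 to 13696 in Crebbp+/-, without overlap. Among them Hlf was 9.88 to 10.08 against 9.30 to 9.57 and Mecom 11.58 to 11.74 against 11.22 to 11.35 on the log2 scale. Procr was 7.70 to 8.18 against 6.69 to 7.57. The others, Kit, Cd34, Cd93, Flt3, Meis1 and Slamf1, overlapped between the groups. The medians of Kit (9.20 in WT, 9.33 in Crebbp+/-), Cd34 (11.83, 11.90), Cd93 (12.19, 12.20) and Slamf1 (3.55, 3.67, below the minimum) were not lower. Those of Flt3 and Meis1 were. In the Ep300 experiment the sum of the gate genes overlapped, at 16294 to 16454 in WT and 15984 to 16922 in mutant samples. A mast cell and basophil list was higher in the Crebbp+/- samples, at 83 against 47 to 48, with 0 of its 8 genes at the minimum. A lymphoid list was lower in the Ep300+/- samples, at 482 to 537 against 568 to 578, with 1 of its 11 genes at the minimum. Which cells the transcripts of these lists came from was not tested, nor was their part in the differences of the members.

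No probe set of the 7 genes measured in the Cdkn1a experiment was called in Cdkn1a-/- FL HSCs. This comparison was not used to choose the genes. The 7 genes, all but Gp1bb and Gp5, had 8 measured probe sets. Limma called 0 of the 8, where 0.405% of all 20962 probe sets tested were called (11 higher and 74 lower). At an unadjusted p under 0.05 there were also 0 of the 8, a share that was not counted over all probe sets. The methods' t-test called 0 of the 2 that passed its filters, where 548 of all 3298 that passed were called before adjustment. With so few member probe sets beside these shares, nothing is read from the counts of 0. The lowest adjusted p among the 8 from limma was 0.697.

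Gp9 had levels of 9.51, 8.20 and 9.10 in WT samples 1, 2 and 3 and of 8.98, 8.62, 8.73 and 8.80 in Cdkn1a-/- samples 1 to 4. The null samples lay within the range of WT, with a difference of -0.15 (SE 0.30, adjusted p = 0.867 from limma). Without WT sample 1 it turned to 0.13, and without WT sample 3 it was -0.07. Selp (1420558_at) was 9.43, 8.68 and 7.67 in WT and 9.31, 8.90, 9.46 and 9.89 in Cdkn1a-/- samples. All 4 null samples lay above the WT mean, by 0.80 on average (SE 0.43, adjusted p = 0.717 from limma), yet WT sample 1 was higher than 2 of them, and the difference was 0.34 without WT sample 3. The 2 dimmer Selp probe sets were below the minimum here.

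Vwf was 8.98, 6.86 and 7.79 in WT and 8.28, 7.32, 7.60 and 6.90 in Cdkn1a-/- samples. The groups overlapped, with a difference of -0.36 (SE 0.54, adjusted p = 0.833 from limma) that turned to 0.20 without WT sample 1 and was -0.40 without WT sample 3. Nfe2 was 12.50, 12.49 and 12.30 in WT and 12.65, 12.49, 12.48 and 12.49 in Cdkn1a-/- samples, a difference of 0.10 (SE 0.09, adjusted p = 0.751) that was 0.04 without WT sample 3.

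Pf4, Itga2b and both probe sets of Fyb were highest in WT sample 3, the sample with high erythroid, hepatocyte and macrophage sums. Pf4 was 7.13 and 7.22 in the first and second WT samples, 12.28 in the third, and 6.94, 7.31, 6.56 and 7.70 in Cdkn1a-/- samples. The difference of -1.75 (SE 1.26, adjusted p = 0.72 from limma) was -0.05 without WT sample 3. Itga2b was 5.67 and 5.68 in the other WT samples and 5.67 to 5.68 in the null samples, and reached the minimum in WT sample 3 alone, so it was not measured without it. Fyb 1452117_a_at was 9.11, 9.32 and 10.67 in WT and 8.997 to 9.11 in null samples, a difference of -0.63 that was -0.15 without WT sample 3. Fyb 1435144_at was 11.84, 11.75 and 12.30 in WT and 11.41, 11.72, 11.70 and 11.62 in Cdkn1a-/- samples. Here the groups did not overlap, but the difference of -0.35 (SE 0.16, adjusted p = 0.697) was not called and was -0.18 without WT sample 3.

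The same sample was also the highest for some other megakaryocyte genes but not for all. Ppbp, a platelet chemokine, was 8.27 there against 2.06 to 2.07 in the remaining 6 samples, and Itgb3, the integrin beta chain that pairs with the product of Itga2b, was 8.92 against 4.14 to 5.49. By smaller margins it was the highest for Gata1 (9.18, next 9.06), Tpm4 (12.95, next 12.79), P2rx1 (9.20, next 9.10) and Lat (10.18, next 9.97). For Fli1, Syk, F5, Evl, Gng11 and Sh2b3 it was not the highest, and for Rasgrp2 it was the lowest (10.02, next 10.11). It was the lowest for Selp, and its endothelial sum was 13176 against 16930 and 22799 in the other WT samples. The part of other cell types in these levels was not tested. Over the 7 measured genes the median difference was -0.32, beside 0.05 over all probe sets tested, and it was -0.06 over 6 genes without WT sample 3 and 0.13 without WT sample 1.

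**Figure D2:**
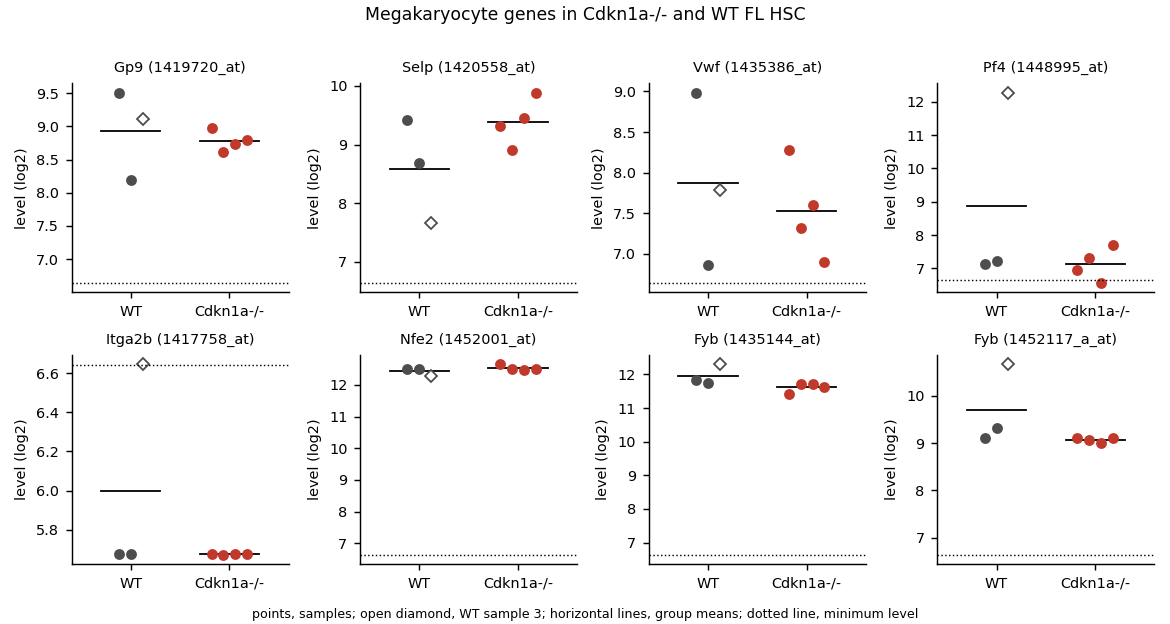
Log2 levels of the 8 measured probe sets in the Cdkn1a experiment, with points for samples, horizontal lines for group means and a dotted line at the minimum of 6.64. WT sample 3 (open diamond) is the highest WT sample for Pf4 (12.28), Itga2b and Fyb and the lowest for Selp (7.67), and the remaining WT samples lie close to the null samples for Pf4 and Itga2b.

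In MEFs 0 of the 9 genes were measured, so there was no difference to test and no median. Limma called 0.0% of the 15502 probe sets tested there, with 149 at an unadjusted p under 0.05 and a fold change over 1.5. Gp1bb (1422977_at) came nearest to the minimum, with 5.41 to 6.20, and the remaining 12 probe sets did not exceed 4.46. Gp9, Nfe2 and Selp 1420558_at lay between 1.82 and 2.14 in all 8 samples. The probe set shared by Gp1bb and Septin5, a septin that is transcribed next to Gp1bb, was the exception at 9.70 to 10.33 in MEFs, with a difference of -0.08 (adjusted p = 0.89 from limma), and it lay below 2.40 in all FL HSC samples.

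**Figure D3:**
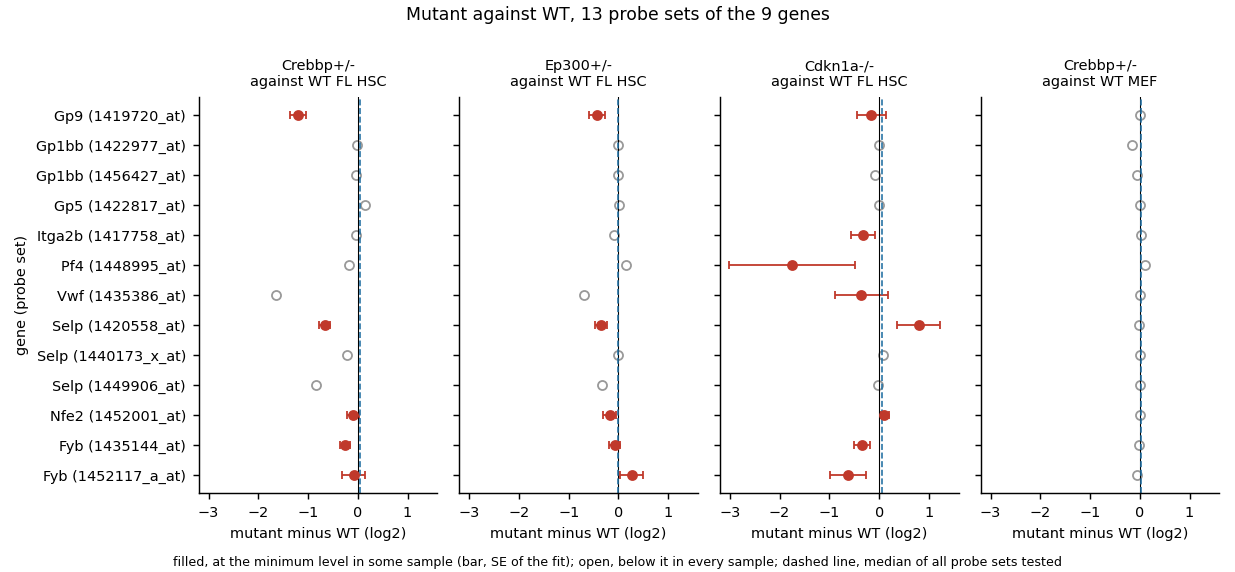
Difference of mutant and WT means on the log2 scale for the 13 probe sets of the 9 genes in each of the 4 comparisons. Filled points with bars (SE of the fit) reached the minimum level in some sample, open points did not, and the dashed line is the median of all probe sets tested. Gp9 and Selp lie left of 0 in Crebbp+/- and Ep300+/- FL HSCs, at -1.21 and -0.66 and at -0.44 and -0.35, Selp lies right of 0 in Cdkn1a-/- FL HSCs, and no point is filled for MEFs.

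Other megakaryocyte genes lay on both sides of 0 in every comparison. Of 70 other genes of the lineage with a probe set, 43 were measured in the Crebbp and Ep300 experiments. In Crebbp+/- FL HSCs 24 of the 43 lay lower and 19 higher, with a median of -0.02 beside 0.05 over all probe sets tested, and in Ep300+/- FL HSCs 22 lay lower and 21 higher, with a median of -0.01 beside -0.01. Over all probe sets tested 42.3% lay lower in Crebbp+/- and 54.9% in Ep300+/- FL HSCs. Limma called 0 of the 43 genes in both experiments. In the Crebbp comparison 12 had an unadjusted p under 0.05 (9 lower and 3 higher), in the Ep300 comparison 2 did (1 lower and 1 higher), and the methods' t-test, whose filters left 9 and 0 of them, called 0. The share of all probe sets at that p alone was not counted in any comparison, so nothing is read from such counts here or below.

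Of the receptor list 1 of 8 genes was measured in the Crebbp and Ep300 experiments, of the granule list 6 of 11, of the transcription factor list 14 of 15, of the signalling list 17 of 26 and of the cytoskeleton list 5 of 10. The median of the transcription factors was -0.07 (8 lower, 6 higher) in Crebbp+/- and -0.03 (10 lower, 4 higher) in Ep300+/- FL HSCs. Fli1, an ETS factor of the megakaryocyte program, differed by 0.19 (SE 0.13) and by -0.11 (SE 0.13). Gata1, which drives erythroid and megakaryocyte genes, was below the minimum in these 8 samples, at 3.37 to 4.56, as were Ppbp and Itgb3. The uncalled genes with the smallest p in Crebbp+/- FL HSCs were Rasgrp2, an exchange factor for the GTPase Rap1 in platelets (-0.59, SE 0.12, adjusted p = 0.0828 from limma), Lat, a signalling adaptor (-0.49, SE 0.11, adjusted p = 0.0887), and Syk, a tyrosine kinase (0.42, SE 0.12, adjusted p = 0.13). In Ep300+/- FL HSCs they were F5, a clotting factor (0.52), Gng11, a G protein gamma subunit (-0.29), and Evl, an actin regulator (0.30), each with an adjusted p of 1.0.

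In Cdkn1a-/- FL HSCs 57 of the 70 genes were measured, 34 lower and 23 higher, with a median of -0.02 beside 0.05 and 0 calls (3 at an unadjusted p under 0.05, and 0 of the 8 that passed the filters of the methods' t-test). Over all probe sets tested 37.8% lay lower, with WT sample 3 included. Without WT sample 3, 53 of the 70 genes were measured, 31 lower and 22 higher, with a median of -0.03. The receptor list had a median of -0.42 over 3 genes, and -0.16 over 2 without that sample. The smallest p belonged to Tpm4, a tropomyosin (-0.47, adjusted p = 0.498 from limma), P2rx1, a receptor for ATP (-0.28, adjusted p = 0.636), and F5 (-0.50, adjusted p = 0.648), which without WT sample 3 differed by -0.36, -0.24 and -0.41. Gata1 differed by -0.05 and, without WT sample 3, by 0.68, and Fli1 by 0.05 and 0.04. In MEFs 28 of the 70 were measured, 13 lower and 15 higher, with a median of 0.01 beside 0.02 and 0 calls (1 at an unadjusted p under 0.05, and 0 of the 2 that passed the filters of the methods' t-test). Over all probe sets tested in MEFs 42.1% lay lower. The smallest p among the measured genes there belonged to Sh2b3, an adaptor of cytokine signalling (-0.28, adjusted p = 0.714), Myl9, a myosin light chain (0.29, adjusted p = 0.745), and Evl (0.17, adjusted p = 0.746).

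**Figure D4:**
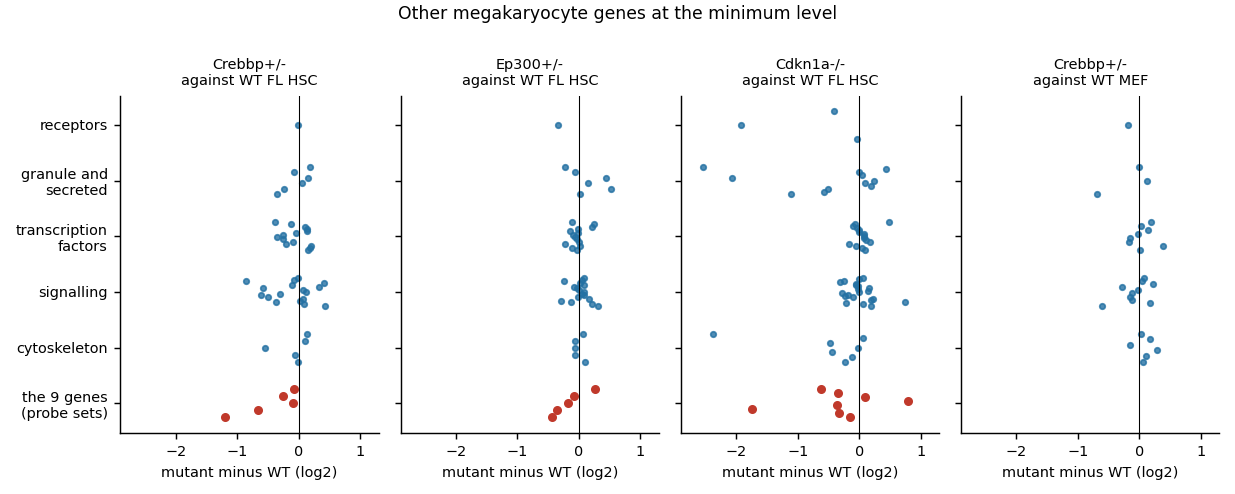
Difference of mutant and WT means on the log2 scale for the measured genes of 5 other megakaryocyte lists (blue) and the measured probe sets of the 9 genes (red) in the 4 comparisons. The lists lie on both sides of 0 in the Crebbp and Ep300 experiments, and the far left points in the Cdkn1a experiment include Ppbp (-2.07) and Itgb3 (-1.92), which were highest in WT sample 3.

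The 4 genes measured in every FL HSC experiment varied together only in part. Over 14 FL HSC samples, without Cdkn1a WT sample 3 and with each experiment centred on its mean, Pearson's r was 0.53 between Gp9 and Selp, 0.69 between Selp and Nfe2, and 0.23 to 0.39 for the other pairs. Over the 8 samples of the Crebbp and Ep300 experiments it was 0.81 for Selp and Nfe2, 0.61 for Nfe2 and Fyb and 0.52 for Gp9 and Selp. For the other pairs it was 0.31 to 0.37 there. All these values of r are descriptions over samples that share their normalization within an experiment. Each experiment was centred over both genotypes, so r also carries the Crebbp+/- and Ep300+/- differences that chose the genes. Among 11781 probe sets, the genes whose profile was most like the mean of the 4 over the 14 samples were Tspan8 (r = 0.93), Meg3 (0.93), Igf2 (0.91), Retreg1 (0.91) and Zfp655 (0.90). Over the 8 samples they were Tspan8 (0.98), Ankrd11 (0.97), Tut4 (0.97), Meg3 (0.96) and Kcnn4 (0.96). These are the highest of 11781 values over few samples, against a profile that carries the differences that chose the genes. High values are therefore to be had by selection alone, and nothing is read from the names.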

How the data were processed

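Values of 31 arrays were taken as deposited. The authors made the log2 values with GCRMA (named in the submitters' processing notes, with no version), a method that removes background estimated from probe sequence, applies quantile normalization and summarizes each probe set, run separately for each experiment. The methods state that MEF RNA was not amplified, whereas the labels name the same amplification kit for it. Of 45101 probe sets 64 controls were left out, the 2 arrays of a sample were averaged, and probe sets whose highest sample in the fit reached log2(100), 6.64, were tested. Arrays have no read depth, so precision is limited by how many there are. Each array had 11199 to 19522 probe sets at that level.

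Tests used limma 3.58.1 in R 4.3.3: 1 fit for all Crebbp and Ep300 FL HSC samples with samples of the same number blocked, 1 for Cdkn1a without a block, and 1 for MEFs blocked by litter. Deviations of paired samples correlated at 0.71 and 0.38 (FL HSC, 2 pairs each) and 0.19 to 0.46 (MEF litters, which the labels give). Nothing in the labels says whether FL HSC samples of a group are independent sorts, so p-values measure the spread between these samples. A call needed a Benjamini-Hochberg adjusted p under 0.05 over all probe sets tested and a fold change over 1.5. The paired test of the methods was run as an alternative (the methods' t-test), in an unpaired form for Cdkn1a. GCRMA gave near-equal values in many samples: most samples of an experiment lay within 0.02 of the median for 1.86% to 8.12% of the probe sets whose mean level reached the minimum, so small SDs understate error. A gene with several probe sets was represented in lists by the one with the highest mean over FL HSC samples.

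Probe sets were named from the platform annotation (34945 with 1 gene, 932 with several, 9160 with none), genes were placed by RefSeq on GRCm38.p6, and upstream sequences came from RefSeq on that build. The members and lists were chosen with earlier results of these data known. Named genes were the 9 members, Gata1, Fli1, Ppbp and Itgb3 (other genes of this rule are not reported here), any called gene of the wider lists, the 3 with the smallest p in each comparison, the 5 most like the members' mean profile, and defining markers of other cells. The scripts were tested on simulated data.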

Additional observations from a re-analysis of the deposited data

Results flagged for a closer look

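Nfe2 in the Cdkn1a-/- FL HSCs had 1 sample, at 12.65, far from the other 3 (12.48 to 12.49) for the range of that group. It was 1 of 8 groups of 4 samples examined. The other 3 values are near-equal, as GCRMA makes them for many probe sets, so the gap is measured against a spread that understates error.

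Selp (1420558_at) was lower in both pairs of the Crebbp experiment and of the Ep300 experiment and higher than the WT mean in all 4 Cdkn1a-/- samples, so that its difference was lower in Crebbp+/- than in Cdkn1a-/- FL HSCs by -1.46 and lower in Ep300+/- than in Cdkn1a-/- FL HSCs by -1.15. Nfe2 was lower in both pairs of the Ep300 experiment and higher than the WT mean in all 4 Cdkn1a-/- samples, a difference of -0.28 between the experiments. Both rest in part on WT sample 3, which stood apart: without it the Cdkn1a difference fell from 0.80 to 0.34 for Selp and from 0.10 to 0.04 for Nfe2, and the null samples lay on both sides of the WT mean. These differences between experiments, which were normalized apart and differ in strain background, were not tested.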

How the results depend on the processing

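Called probe sets were the least stable values. In the Crebbp FL HSC experiment 51 were called, and 208 with arrays centred on their median, 186 after a second quantile normalization, 222 with a filter on the mean level, 0 without a level filter, 0 with either technical replicate alone, 0 with only the samples of that experiment, and 199 by the methods' t-test before and 0 after adjustment. Without either pair the count was 0 to 0. In the Ep300 experiment the count of 0 became 11 by the methods' t-test before adjustment. In the Cdkn1a experiment the 85 became 38 with a filter on the mean level, 42 without a filter, and 548 and 141 by the methods' t-test before and after adjustment, and leaving out 1 sample gave 38 to 87 (38 to 52 without WT 1 or any 1 null sample). In MEFs the 0 became 61 by the methods' t-test before adjustment, and 0 to 2 without 1 litter, 2 without litter 1.

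The replicate block changed the counts: without it 0 were called in the Crebbp FL HSC and 2 in the MEF experiment, and with a block on the sample numbers of the Cdkn1a experiment, which leaves out null sample 4, 6 were. Those numbers share no label, and their correlations were 0.25, 0.29 and -0.05.

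The median over the measured genes in Crebbp+/- FL HSCs (-0.46) was -0.18 with a filter on the mean level, -0.17 without a filter, -0.68 and -0.24 with the first and the second arrays alone, and -0.25 with only that experiment's samples. In Ep300+/- FL HSCs (-0.26) it was -0.25 centred, -0.13 with the mean filter, -0.10 without a filter, -0.35 and -0.23 with the first and second arrays alone, -0.25 after quantile normalization, and -0.29 to -0.17 without a pair. Without a filter all 9 genes enter, most of them near background. In Cdkn1a-/- FL HSCs (-0.32) leaving out 1 sample gave -0.49 to 0.13, with Gp9 (-0.52 to 0.13) and Vwf (-0.86 to 0.20) turned without WT 1. The number of called members in the Cdkn1a experiment was 0 under every alternative run, with 2 to 13 member probe sets tested. In MEFs no member probe set was tested except without a level filter, where 0 of 13 were called. Causes were not tested except as stated. No median could be had for MEFs.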
